A study of Mus musculus with 4 samples.

Results

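The oxidative phosphorylation genes are the nuclear genes for the subunits of respiratory chain complexes I to IV and of ATP synthase, for cytochrome c, and for the factors named after complexes I and IV that help to build them. They were chosen by symbol: every gene whose symbol starts with Nduf, Uqcr, Atp5 or Cox followed by a digit, with Sdha, Sdhb, Sdhc, Sdhd, Cycs and Cyc1, and without Atp5s. Of 21153 gene symbols on the array, 104 belonged to this set, and 102 of them could be tested. These were 36 genes of complex I, 4 of complex II, 9 of complex III, 18 of complex IV, 17 of ATP synthase, the gene for cytochrome c, 8 assembly factors of complex I and 9 of complex IV. Ndufa4 and Ndufa4l2 were counted with complex IV, where the Ndufa4 protein sits despite its name. The testis isoforms Cox7b2 and Cox8c were well above background on 0 of 4 arrays and were not tested, and Ndufb1, Ndufb4b and Ndufb4c had no probe.

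RNA came from small intestine, taken from wild-type mice and from mice in which the Cyp3a gene cluster had been deleted on both chromosomes (Cyp3a-/-). The cluster encodes cytochrome P450 enzymes, which oxidise drugs, steroids and bile acids in liver and gut. Each genotype had 2 arrays, called wild type 1 and 2 and knockout 1 and 2, and the experiments used different animals per the labels. The labels give no treatment, age, sex or strain, and they do not say whether 1 animal or a pool was hybridised to an array, so the p-values measure the spread between these samples, which may be in part technical. RNA of a tissue, and not of single cells, was measured, so fewer cells of a type and less RNA per cell cannot be told apart.

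Complexes I and II pass electrons from NADH and succinate to ubiquinone, complex III passes them on to cytochrome c, and complex IV hands them to oxygen. Complexes I, III and IV pump protons out of the mitochondrial matrix, and ATP synthase uses their return to make ATP. Absorptive enterocytes, the main cells of the villus, hold many mitochondria and spend ATP on the sodium gradient that drives uptake of sugars and amino acids. A few catalytic subunits are encoded by mitochondrial DNA and were not analysed here.

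The arrays were of unequal brightness. Between 55.1% and 64.4% of 39429 probes were well above background, no spot was saturated, and the 75th percentile of signal lay between 175 on knockout 2 and 356 on wild type 2. The deleted gene Cyp3a11 read 5.05 and 5.78 on the wild-type arrays against -5.77 and -4.52 on the knockout arrays, as the labels say. Pairs of values are given as replicate 1 and then replicate 2. A level is the log2 signal of a gene's brightest probe minus the 75th percentile of its array, and a difference is the knockout mean minus the wild-type mean on that scale. Levels of different probes cannot be set against each other, since probes differ in how well they bind. Wild type 2 and knockout 1 were hybridised on the same slide and read in the same scan, and wild type 1 and knockout 2 were each alone on a slide of their own. With 2 arrays per genotype, precision is set by their number. Binding of probes to transcripts of pseudogenes, of which these families have 20, was not checked.

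No oxidative phosphorylation gene passed the test for a difference between the genotypes. With limma and Benjamini-Hochberg adjustment over 14399 genes, 0 of 102 had an adjusted p under 0.05, against 0.0417% of all genes, which were 6 genes and all lower in the knockout. At an unadjusted p under 0.05, limma likewise gave 0 of 102, against 0.444% of all genes. The smallest unadjusted p among the 102 was 0.278, for Ndufs8, and every adjusted p was 1.00. The standard errors of the differences ran from 0.26 to 1.03 with a median of 0.35, so a difference of the usual size here lay inside its own error.

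The differences were small and nearly all of the same sign. The knockout mean was above the wild-type mean for 98 of 102 genes (96.1%), against 56.2% of all genes tested. The median difference was 0.22, with an interquartile range from 0.15 to 0.28 and extremes at -0.31 and 0.85, against a median of 0.04 over all genes. The upper extreme was the assembly factor Cox17, which was well above background on 2 of 4 arrays, and the next largest difference was 0.42, that of Cycs. The median difference of the 102 genes was 0.10 with quantile normalization and 0.28 with array medians. It turned to -0.41 with normexp background correction, which raised the low signals of knockout 2. Normexp also turned the medians of each complex and of cytochrome c, though not that of the complex I assembly factors. With the faulty local background repaired, an alternative added after the data were seen, normexp gave 0.17. The 4 genes with a lower knockout mean were Ndufa4l2, Cox6b2, Cox8b and Cox15. These genes share 4 RNA samples and are not independent of each other, so the count is a description and carries no test.

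Most of that sign came from wild type 2 and knockout 1. Set against the wild-type mean, the median of the 102 genes was 0.18 on wild type 1, -0.18 on wild type 2, 0.33 on knockout 1 and 0.11 on knockout 2. Wild type 2 held the lowest of the 4 values for 77 genes (75.5%, against 29.4% of all genes), and knockout 1 held the highest for 67 (65.7%, against 34.2%). Wild type 1 thus lay above knockout 2 by these medians. Without wild type 2 the median difference was 0.03 and 59 of 102 genes had a higher knockout mean. Without knockout 1 the median was 0.11, with 68 genes higher. Without wild type 1 it was 0.41 and without knockout 2 it was 0.33, with 94 and 91 genes higher. Within the slide that held wild type 2 and knockout 1, the median difference was 0.51, with 97 genes higher in the knockout.

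The genotypes overlapped for most genes. In 12 of 102 genes (11.8%, against 8.65% of all genes) the lower knockout array exceeded the higher wild-type array, and in 0 of 102 (against 6.08%) the reverse held. For the other 90 genes the genotypes overlapped. The difference was larger than the gap between the arrays of either genotype for 4 genes, Ndufs8, Ndufaf2, Ndufa4 and Cox20, which is 3.92% against 7.85% of all genes. The median gap was 0.37 between the wild-type arrays and 0.30 between the knockout arrays, against 0.30 and 0.45 over all genes. Both knockout arrays lay above the wild-type mean for 57 genes (55.9%, against 23.1% of all genes), knockout 1 alone for 34 (33.3%, against 29.8%) and knockout 2 alone for 11 (10.8%, against 32.0%).

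**Figure D1:**
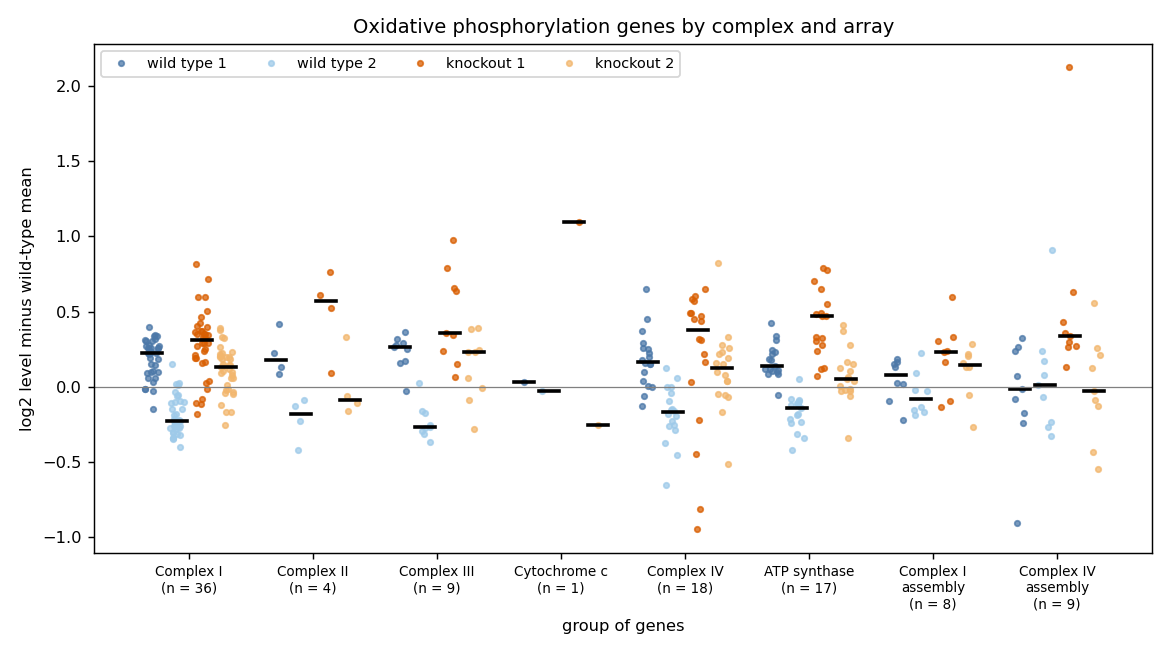
Log2 level of each gene on each array minus that gene's wild-type mean, by complex, with 1 point per gene and array and a black bar at the median. In complex I the medians are 0.22 on wild type 1, -0.22 on wild type 2, 0.31 on knockout 1 and 0.13 on knockout 2, so wild type 1 lies above knockout 2.

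Promoters of these genes were searched for letters bound by factors known to act on many of them. RefSeq windows of assembly GRCm38.p6, from 250 bases before to 50 after a gene's start, matched 83 of the 102 genes in 89 windows. The letters searched, on both strands, were GCGC and TGCGC with 1 base of any kind between them for NRF1, CCGGAAG for ETS factors such as GABP, AAGATGGCG for YY1, TCAAGGTCA for estrogen-related receptors and TATAAA for a TATA box, and in these windows no motif overlapped another. NRF1 letters were in 22.5% of the 89 windows and in 4.6% of all 32851 windows. ETS letters were in 28.1% and 8.86%, YY1 letters in 10.1% and 1.4%, receptor letters in 2.25% and 0.423%, and TATAAA in 10.1% and 13.6%. A match is a description of the sequence and not a shown binding site. The 32851 windows include those of genes not tested here, and they were not matched for base composition. The median difference was 0.22 for the 19 genes with NRF1 letters and 0.23 for the 64 without, and 0.24 for the 24 with ETS letters and 0.21 for the 59 without. It was 0.23 for the 9 genes with YY1 letters and 0.22 for the 74 without, and 0.29 for the 2 with receptor letters and 0.22 for the 81 without. For the 8 genes with TATAAA it was 0.17, against 0.23 for the 75 without, with medians of 0.10 against 0.34 on knockout 1 and 0.32 against 0.10 on knockout 2. These splits carry no test. Below are the 200 bases before the start of a gene each of complex I, complex II, complex IV and ATP synthase, taken from those that hold NRF1 letters, 5′ to 3′ on the gene's own strand, which is the minus strand for all 4. Both NRF1 and ETS letters were in 4 of the 89 windows, those of Sdhd, Cox6a1 and Atp5h among them, so the windows shown are not typical in this. Capitals mark NRF1 letters and ETS letters in either orientation.
Ndufs6: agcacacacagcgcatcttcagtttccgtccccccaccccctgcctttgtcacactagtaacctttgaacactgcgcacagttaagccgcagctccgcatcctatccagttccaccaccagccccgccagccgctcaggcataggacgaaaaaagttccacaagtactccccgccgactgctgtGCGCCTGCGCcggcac
Sdhd: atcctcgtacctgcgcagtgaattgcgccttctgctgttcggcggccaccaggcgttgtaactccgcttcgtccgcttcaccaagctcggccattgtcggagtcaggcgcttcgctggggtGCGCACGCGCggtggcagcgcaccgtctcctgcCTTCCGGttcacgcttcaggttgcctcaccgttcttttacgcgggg
Cox6a1: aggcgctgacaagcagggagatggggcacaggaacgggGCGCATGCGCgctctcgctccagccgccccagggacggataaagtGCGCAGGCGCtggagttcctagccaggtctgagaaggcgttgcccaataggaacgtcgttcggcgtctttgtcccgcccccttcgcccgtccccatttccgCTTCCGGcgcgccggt
Atp5h: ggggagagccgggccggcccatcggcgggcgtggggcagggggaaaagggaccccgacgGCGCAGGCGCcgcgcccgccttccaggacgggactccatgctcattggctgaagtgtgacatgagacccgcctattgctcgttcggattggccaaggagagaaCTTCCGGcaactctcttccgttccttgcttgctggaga
The windows lie at chr13:73328483-73328682 for Ndufs6, chr9:50603850-50604049 for Sdhd, chr5:115348959-115349158 for Cox6a1 and chr11:115419920-115420119 for Atp5h. In Ndufs6, an accessory subunit of complex I with a zinc site, the NRF1 letters begin 16 bases before the start. In Sdhd they begin 79 bases before it, and ETS letters follow at 46. The Cox6a1 window holds NRF1 letters at 162 and 117 bases and ETS letters at 16. In Atp5h, subunit d of the outer stalk, they begin at 141 and 38 bases. The differences of these genes were 0.18 for Ndufs6, 0.35 for Sdhd, 0.24 for Cox6a1 and 0.24 for Atp5h, and that of Sdhd was the largest of complex II.

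Complex I takes electrons from NADH, and its nuclear core subunits carry the flavin and the iron-sulfur clusters. All 36 tested genes had a higher knockout mean, with differences from 0.01 to 0.40 and a median of 0.21. The 7 core genes had a median of 0.20 and the 29 accessory genes of 0.21. The complex I median was -0.022 without wild type 2, 0.42 without wild type 1, 0.13 without knockout 1 and 0.31 without knockout 2, and wild type 2 was the lowest array for 31 of the 36 genes.

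Ndufv1 binds the flavin that receives electrons from NADH, and its levels were 5.67 in wild type 1, 4.99 in wild type 2, 5.62 in knockout 1 and 5.43 in knockout 2. Wild type 2 was the lowest array there, and the difference was 0.20 (95% interval -0.68 to 1.07). Its partner Ndufv2, an iron-sulfur subunit, had levels of 5.25 and 4.80 on the wild-type and 5.23 and 5.21 on the knockout arrays, with the same array lowest. Ndufs1, the largest iron-sulfur subunit, had levels of 4.04 and 3.59 on the wild-type and 4.24 and 3.87 on the knockout arrays, and here knockout 2 lay between the wild-type arrays. Ndufs3, of the peripheral arm, had levels of 5.14 and 4.69 on the wild-type and 5.18 and 5.05 on the knockout arrays, and wild type 2 was the lowest array. Ndufs7, which carries the last iron-sulfur cluster before ubiquinone, had levels of 5.83 and 5.14 on the wild-type and 5.53 and 5.75 on the knockout arrays, and wild type 1 was its highest array.

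Ndufs8, a neighbouring iron-sulfur subunit, was the core gene whose genotypes did not overlap. Its levels were 1.49 in wild type 1, 1.29 in wild type 2, 1.79 in knockout 1 and 1.62 in knockout 2, or 1.39 ± 0.14 in wild type and 1.70 ± 0.12 in knockout (mean ± SD, n = 2). Its difference of 0.32 had an SE of 0.26 and a 95% interval of -0.33 to 0.96. Among accessory subunits, Ndufb4, Ndufb5 and Ndufb11 also had no overlap, with the knockout above. For Ndufb4, of the membrane arm, the levels were 4.99 and 4.78 on the wild-type and 5.39 and 5.03 on the knockout arrays, and the nearest arrays of the genotypes, wild type 1 and knockout 2, were close together. A dimmer Ndufb11 probe gave a difference close to 0, against 0.23 on the brighter probe. The remaining accessory genes are described by their range: knockout 1 was below the wild-type mean for 5 of them, and knockout 2 was above it for all 5, which were Ndufa2, Ndufa3, Ndufb7, Ndufb10 and Ndufv3.

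Accessory subunits stabilise the core and anchor it in the membrane, and their arrays fell into several orders. Ndufa6, a subunit of the peripheral arm, had the largest difference of complex I (0.40), with levels of 3.50 and 3.54 on the wild-type and 4.34 and 3.51 on the knockout arrays, so knockout 1 alone stood apart. Ndufc1, Ndufa1 and Ndufb2, all of the membrane arm, also had knockout 1 as the highest array, 0.72, 0.59 and 0.60 above the wild-type mean. Ndufb7 had wild type 1 and knockout 2 level and above the arrays of the shared slide, at 6.65 and 5.85 on the wild-type and 6.23 and 6.64 on the knockout arrays. Ndufab1, the mitochondrial acyl carrier protein, had levels of 2.00 and 1.32 on the wild-type and 1.90 and 1.84 on the knockout arrays, with only wild type 2 low. Ndufa13, also known as a cell death regulator, had nearly equal knockout arrays (6.94 and 6.43 on the wild-type and 6.88 and 6.91 on the knockout arrays).

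Complex II is succinate dehydrogenase, which also serves the tricarboxylic acid cycle. Sdha, the flavoprotein that oxidises succinate, had levels of 4.59 in wild type 1, 4.42 in wild type 2, 5.03 in knockout 1 and 4.39 in knockout 2. Sdhb, the iron-sulfur subunit, had levels of 5.82 and 5.56 on the wild-type and 6.30 and 5.54 on the knockout arrays. In both genes knockout 1 was the highest array and knockout 2 the lowest, so the knockout arrays enclosed the wild-type arrays. Sdhd, a membrane anchor, had levels of 5.30 and 4.84 on the wild-type and 5.83 and 5.01 on the knockout arrays, with knockout 1 above the other arrays. Its partner anchor Sdhc went another way on its brighter probe, where wild type 1 was the highest array. Its levels there were 5.10 and 4.27 on the wild-type and 4.77 and 5.02 on the knockout arrays. A dimmer Sdhc probe, also well above background on all 4 arrays, read 3.99 on both wild-type arrays. It read 4.51 and 3.74 on the knockout arrays, with knockout 1 highest and knockout 2 lowest, as in Sdha and Sdhb. The median difference of the 4 genes was 0.22, with 0.57 on knockout 1 and -0.09 on knockout 2 against the wild-type mean, and it was 0.11 without wild type 2 and 0.47 without wild type 1.

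Complex III passes electrons from ubiquinol to cytochrome c through the Rieske iron-sulfur protein and cytochrome c1. Its 9 genes had a median difference of 0.31 and a range from 0.15 to 0.37. That median was 0.04 without wild type 2 and 0.51 without wild type 1, and 0.23 and 0.36 without knockout 1 and 2. Whether the complexes differ from each other was not tested. Uqcrfs1, the Rieske protein, had levels of 4.36 in wild type 1, 4.42 in wild type 2, 5.37 in knockout 1 and 4.11 in knockout 2. Knockout 1 lay 0.98 above the wild-type mean and knockout 2 below both wild-type arrays, which were close together. Cyc1, cytochrome c1, had levels of 4.76 and 4.03 on the wild-type and 5.06 and 4.45 on the knockout arrays, with wild type 2 low and knockout 1 high. Uqcrc1 and Uqcrc2 are the core proteins on the matrix side. Uqcrc1 had levels of 3.92 and 3.29 on the wild-type and 4.40 and 3.52 on the knockout arrays and Uqcrc2 of 4.86 and 4.51 on the wild-type and 5.32 and 4.68 on the knockout arrays, and in each case knockout 2 lay between the wild-type arrays.

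The small subunits Uqcr10 and Uqcrb were the complex III genes whose genotypes did not overlap. Uqcr10 had levels of 6.17 in wild type 1, 5.66 in wild type 2, 6.27 in knockout 1 and 6.31 in knockout 2, a difference of 0.37 with an SE of 0.35. All 3 of its probes gave a positive difference, from 0.37 to 0.61. Here the knockout arrays were nearly equal, and the spread lay between the wild-type arrays. Uqcrb, a ubiquinone-binding subunit, had levels of 5.30 and 4.98 on the wild-type and 5.48 and 5.37 on the knockout arrays, and wild type 1 came close to knockout 2. On its dimmer probes the genotypes overlapped. Knockout 2 read 4.48 against 4.52 on wild type 1 with the one, and 3.76 against 3.89 on wild type 2 with the other. For the hinge protein Uqcrh the levels were 7.63 and 7.10 on the wild-type and 7.43 and 7.60 on the knockout arrays, and both arrays of the shared slide lay below the other arrays.

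Cytochrome c, encoded by Cycs, carries electrons from complex III to complex IV and, once released from mitochondria, starts caspase activation. It had the largest difference among the structural subunits and carriers (0.42), and that difference rested on a single array: without knockout 1 it was -0.25. Its levels were 5.20 in wild type 1, 5.14 in wild type 2, 6.27 in knockout 1 and 4.92 in knockout 2, so knockout 1 stood 1.095 above the wild-type mean while knockout 2 was the lowest array. The 95% interval was -0.76 to 1.60. Its other 2 probes gave differences of 0.32 and 0.84, each with knockout 1 highest, and the dimmer of them was well above background on 2 of 4 arrays.

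**Figure D2:**
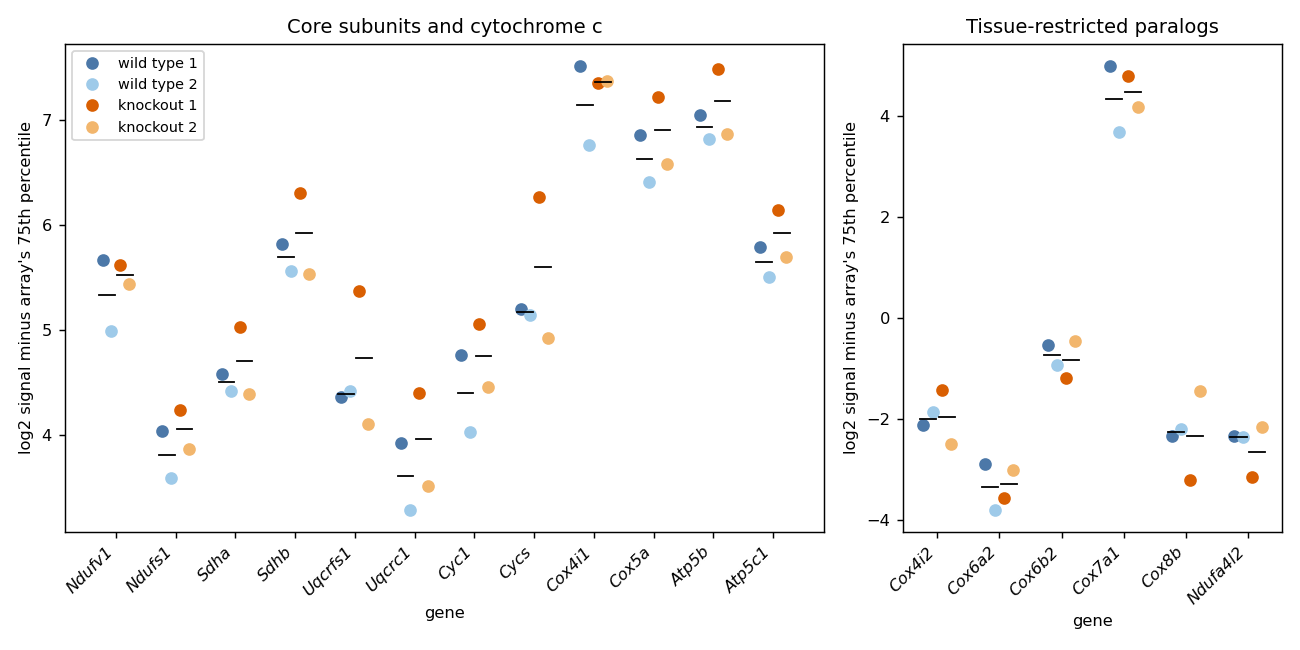
Levels (log2 signal minus the array's 75th percentile) on each of the 4 arrays for core subunits and cytochrome c, left, and for paralogs of complex IV, right; black bars mark the mean of each genotype. Knockout 1 is the highest array for Cycs, at 6.27, and the lowest for Cox8b, at -3.22.

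Complex IV, cytochrome c oxidase, has nuclear subunits around its mitochondrially encoded core, and several exist as a ubiquitous form and a form used in heart and skeletal muscle, lung or testis. Of its 18 tested genes 15 had a higher knockout mean, with a median difference of 0.22. That median was 0.01 without wild type 2, 0.41 without wild type 1, 0.13 without knockout 1 and 0.38 without knockout 2. Cox4i1, the ubiquitous form of subunit 4, had levels of 7.51 in wild type 1, 6.76 in wild type 2, 7.35 in knockout 1 and 7.37 in knockout 2. Wild type 2 was low, and the other arrays lay close to each other. Cox5a, a subunit on the matrix side, had levels of 6.86 and 6.41 on the wild-type and 7.22 and 6.58 on the knockout arrays. Cox5b, which holds a zinc ion, had levels of 5.80 and 5.44 on the wild-type and 5.93 and 5.66 on the knockout arrays. For both, knockout 2 lay between the wild-type arrays. Cox7b had the largest difference of the complex, 0.38 (95% interval -0.46 to 1.22), with levels of 5.74 and 5.42 on the wild-type and 6.19 and 5.73 on the knockout arrays, so wild type 1 and knockout 2 were level.

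The ubiquitous paralogs Cox6a1, Cox6b1, Cox7a2 and Cox8a had differences of 0.24, 0.28, 0.24 and 0.21. Cox7a2l, which helps to join complexes III and IV into supercomplexes, had a difference of 0.07 and nearly equal levels, 5.87 and 5.79 on the wild-type and 5.86 and 5.93 on the knockout arrays. Ndufa4 was the complex IV gene whose genotypes did not overlap, with levels of 4.86 and 4.67 on the wild-type and 5.23 and 4.98 on the knockout arrays and a difference of 0.34 (SE 0.30).

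Several tissue-restricted paralogs spread widely between the knockout arrays. Cox8b, the heart and skeletal muscle form of subunit 8, which brown fat also uses, had levels of -2.33 in wild type 1, -2.21 in wild type 2, -3.22 in knockout 1 and -1.45 in knockout 2. The wild-type arrays were close to each other, and the knockout arrays lay -0.95 and 0.82 from the wild-type mean, on opposite sides. Ndufa4l2, a paralog of Ndufa4 known for its induction by hypoxia, had levels of -2.35 and -2.36 on the wild-type and -3.16 and -2.16 on the knockout arrays, with knockout 1 apart from the other arrays. Its difference of -0.31 was the lowest of the 102 (95% interval -1.38 to 0.76). Cox6b2, a testis form, had levels of -0.54 and -0.94 on the wild-type and -1.19 and -0.46 on the knockout arrays, with knockout 1 lowest and knockout 2 highest. Cox4i2, the lung form of subunit 4, ran the other way, at -2.12 and -1.87 on the wild-type and -1.43 and -2.51 on the knockout arrays. Cox7a1 and Cox6a2, muscle forms, had a wide gap between the wild-type arrays. Cox7a1 had levels of 4.99 and 3.69 on the wild-type and 4.79 and 4.18 on the knockout arrays and Cox6a2 of -2.89 and -3.80 on the wild-type and -3.57 and -3.02 on the knockout arrays, and in both genes wild type 1 was the highest array and wild type 2 the lowest.

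Marker genes of other cell types were recorded beside these paralogs. On knockout 1 and 2, the median of 5 tested adipocyte markers was -0.69 and 1.60 relative to the wild-type mean, that of 10 smooth muscle markers -0.91 and 0.61, and that of 6 striated muscle markers -0.83 and 0.27. The summed signal of the adipocyte markers, in units of the array's 75th percentile, was 3.59 on both wild-type arrays and ran from 2.16 to 6.13 in knockout, and 3 of the 5 were well above background on all arrays. That of striated muscle ran from 2.27 to 4.56 and from 1.87 to 5.41. The brown fat marker Ucp1 and the skeletal myosins Myh1, Myh2 and Myh4 were not among the genes tested. Of the paralogs above, Cox8b, Cox6b2, Ndufa4l2 and Cox6a2 were lower on knockout 1 than on knockout 2, and Cox7a1 and Cox4i2 were higher. The part of these markers in the values of any of these paralogs was not tested.

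**Figure D3:**
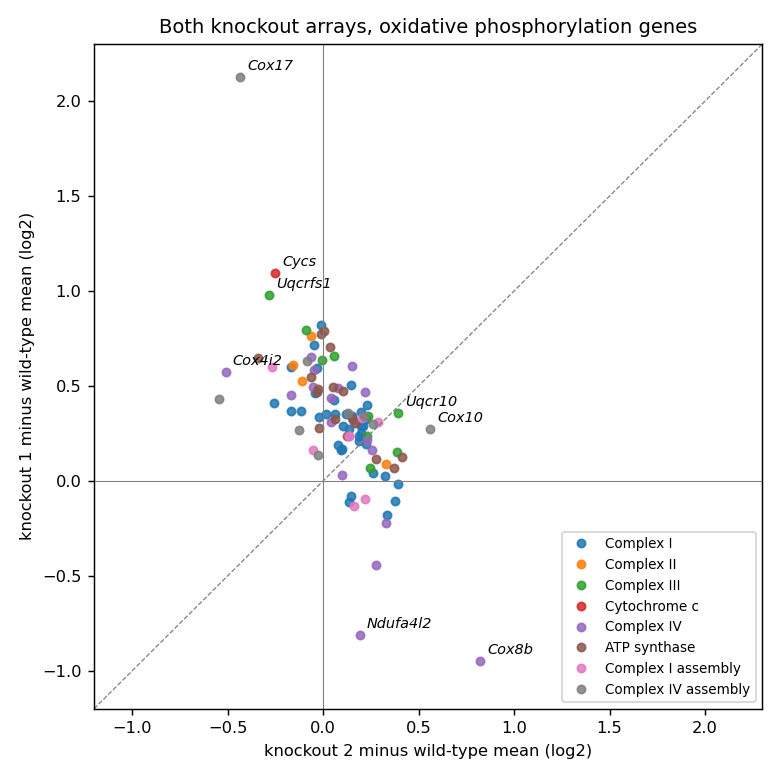
Each of the 102 genes by its log2 difference from the wild-type mean on knockout 2 (horizontal) and knockout 1 (vertical), coloured by complex; the dashed line marks equal values. No gene lies at the lower left, 57 lie at the upper right and 34 at the upper left, and both axes use the same wild-type mean.

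ATP synthase turns the proton flow into rotation of a ring of c subunits and of the central stalk inside the catalytic head. All 17 genes had a higher knockout mean, with differences from 0.13 to 0.40 and a median of 0.24. On knockout 1 the median was 0.47 above the wild-type mean and on knockout 2 it was 0.05. The median difference was 0.05 without wild type 2 and 0.41 without wild type 1. Atp5b, the catalytic beta subunit, had levels of 7.05 in wild type 1, 6.82 in wild type 2, 7.48 in knockout 1 and 6.87 in knockout 2, so knockout 1 was high and knockout 2 lay between the wild-type arrays. Atp5a1, the alpha subunit of the same head, had levels of 6.37 and 6.13 on the wild-type and 6.53 and 6.23 on the knockout arrays, in the same order. Atp5c1, the gamma subunit of the central stalk, had levels of 5.79 and 5.51 on the wild-type and 6.14 and 5.70 on the knockout arrays, and knockout 2 again lay between the wild-type arrays. Atp5d, the delta subunit of the stalk, had levels of 5.37 and 4.52 on the wild-type and 5.27 and 5.01 on the knockout arrays, with wild type 1 highest.

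The c ring is encoded by Atp5g1, Atp5g2 and Atp5g3, which make the same mature protein from different precursors. Their differences were 0.24, 0.20 and 0.23, and knockout 2 was the highest array only for Atp5g2. Atp5l, subunit g at the interface between ATP synthase dimers, was the gene of this complex whose genotypes did not overlap. It had levels of 6.52 and 6.35 on the wild-type and 6.91 and 6.54 on the knockout arrays, with wild type 1 and knockout 2 nearly equal. That held for the brightest of its 5 probes only. On each of the dimmer Atp5l probes knockout 2 lay below wild type 1, so the genotypes overlapped there. Atp5e, the epsilon subunit, was among the genes farthest above the wild-type mean on knockout 2 (0.41), with levels of 7.13 and 6.50 on the wild-type and 6.94 and 7.23 on the knockout arrays and both arrays of the shared slide below the others. Atp5o, which ties the head to the outer stalk, was the lowest on knockout 2 within the complex (-0.34).

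The 3 largest differences of ATP synthase were those of Atp5md, Atp5pb and Atp5j. Atp5md, a small subunit that stabilises dimers, had levels of 5.24 and 5.07 on the wild-type and 5.94 and 5.16 on the knockout arrays and a difference of 0.40. Atp5pb, subunit b of the outer stalk, had levels of 3.74 and 3.53 on the wild-type and 4.41 and 3.63 on the knockout arrays, and Atp5j, coupling factor 6, of 4.22 and 4.32 on the wild-type and 4.97 and 4.31 on the knockout arrays. In all 3 genes knockout 1 was high and knockout 2 lay within or next to the range of the wild-type arrays.

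The assembly factors are not part of the finished complexes. The 8 factors of complex I had a median difference of 0.17, which was 0.06 without wild type 2, and Ndufaf2 and Ndufaf4 did not overlap between genotypes. Ndufaf2, which acts late in complex I assembly, had levels of 0.45 in wild type 1, 0.42 in wild type 2, 0.74 in knockout 1 and 0.72 in knockout 2. The arrays of each genotype agreed closely there, and the difference of 0.30 had an SE of 0.26 and a 95% interval of -0.33 to 0.92. Ndufaf4 had levels of 1.50 and 1.13 on the wild-type and 1.65 and 1.52 on the knockout arrays, with wild type 1 next to knockout 2.

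The 9 factors of complex IV had a median difference of 0.27, which was -0.026 without knockout 1 and 0.16 without wild type 1, and Cox10 and Cox20 did not overlap between genotypes. Cox10 makes heme O, a precursor of the heme A of complex IV, and had levels of -3.22 and -3.69 on the wild-type and -3.18 and -2.90 on the knockout arrays. Cox20, a chaperone of subunit 2, had levels of 2.58 and 2.74 on the wild-type and 3.01 and 2.79 on the knockout arrays. Cox15, which completes heme A, had levels of -1.998 and -1.52 on the wild-type and -1.32 and -2.30 on the knockout arrays. Its knockout arrays thus lay outside its wild-type arrays on opposite sides. A dimmer Cox15 probe read -2.08 and -2.49 on the wild-type and -2.77 and -2.20 on the knockout arrays, with knockout 1 lowest. Cox17, a copper chaperone, had the largest difference of the 102 (0.85) and the largest SE (1.03). Its levels were -6.32 in wild type 1, -4.50 in wild type 2, -3.28 in knockout 1 and -5.84 in knockout 2, and it was well above background only on wild type 2 and knockout 1, which is 1 array of 2 in each genotype.

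The shared slide stood apart from the other arrays for some of these genes, in each direction for a smaller share than over all genes. Both of its arrays lay below both other arrays for 21 of the 102 genes (20.6%, against 24.5% of all genes), among them Atp5e, Atp5g2, Cox4i1, Cox8a, Ndufs6, Ndufs7, Sdhc and Uqcrh. They lay above for 12 (11.8%, against 19.5%), among them Uqcrfs1, Cox4i2, Cox15 and Cox17. Within that slide the median difference was 0.47 for complex I, 0.68 for complex II, 0.61 for complex III, 0.58 for complex IV and 0.58 for ATP synthase.

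Agreement between probes in the difference was close for most genes. The order of the arrays was less stable, and for some genes, Sdhc, Cox15 and Uqcrq among them, a dimmer probe gave another order. Of the genes without overlap, dimmer probes did overlap for Atp5l, Uqcrb, Ndufb5, Ndufb11 and Ndufaf4. They did not for Uqcr10 and Ndufb4. Of 26 genes with several probes above the filter, 2 had probes whose differences disagreed in sign, Cox16 and Ndufv3, both with a difference near 0 on the brighter probe (0.07 and 0.01). The median spread between probes of a gene was 0.08.

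Markers of the absorptive epithelium differed between the arrays too. All 15 enterocyte markers were well above background on all 4 arrays, and their median relative to the wild-type mean was 0.26 on wild type 1, -0.26 on wild type 2, 0.93 on knockout 1 and -0.35 on knockout 2. Sis, sucrase-isomaltase of the brush border, had levels of 3.23 and 2.52 on the wild-type and 4.39 and 2.85 on the knockout arrays. Apob, the scaffold of chylomicrons, had levels of 6.02 and 5.63 on the wild-type and 6.74 and 5.96 on the knockout arrays. The summed signal of the 15 ran from 960 to 1387 in wild type and from 1001 to 1879 in knockout, and that of the 102 oxidative phosphorylation genes from 3678 to 5031 and from 4776 to 5330. Knockout 1 was the highest array and wild type 2 the lowest in both sums. Gene by gene the lowest array differed: it was knockout 2 for 9 of the 15 markers and wild type 2 for 6, Sis and Apob among them. Of the 102 genes, knockout 2 was lowest for 16 and wild type 2 for 77. On knockout 1 and 2, goblet cell markers had medians of 0.91 and -0.0046, smooth muscle markers of -0.91 and 0.61, and fibroblast markers of -0.58 and 0.38. The part of the cell mixture in the values of the oxidative phosphorylation genes was not tested.

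**Figure D4:**
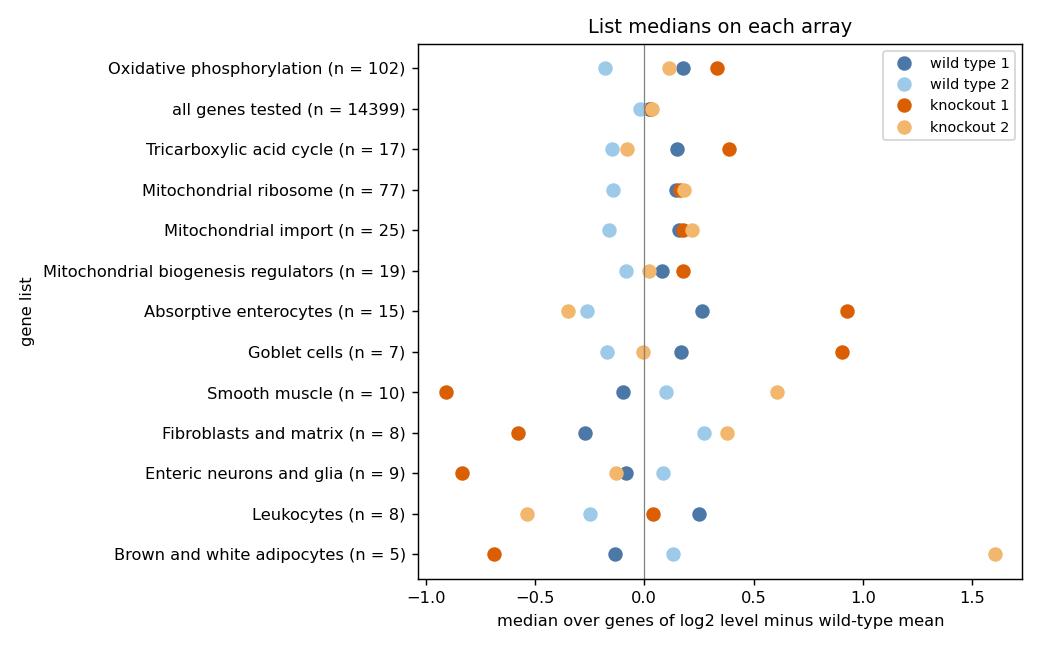
Median over the genes of each list of the log2 level minus the wild-type mean, with 1 point per array. The oxidative phosphorylation genes lie between -0.18 and 0.33, the enterocyte markers between -0.35 and 0.93, and the smooth muscle markers between -0.91 and 0.61.

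Other genes that make or feed the chain were also read. Of 29 assembly factors outside the naming rule, 0 passed limma's adjusted test, 26 had a higher knockout mean, and the median difference was 0.16. Nubpl, which delivers iron-sulfur clusters to complex I, had levels of -0.89 and -1.01 on the wild-type and -0.66 and -0.45 on the knockout arrays. Sco1, which brings copper to complex IV, had levels of -2.27 and -2.12 on the wild-type and -1.17 and -2.17 on the knockout arrays, with knockout 1 alone high. The 17 tricarboxylic acid cycle genes, which supply NADH and succinate, had a median difference of 0.18 and all had a higher knockout mean, with 0 passing. On knockout 1 and 2 their medians were 0.39 and -0.08. Fh1, fumarase, had levels of 3.19 and 3.27 on the wild-type and 3.62 and 3.40 on the knockout arrays, and Sucla2, a subunit of succinyl-CoA ligase, of 3.67 and 3.33 on the wild-type and 4.24 and 3.38 on the knockout arrays. The 18 glycolysis genes had a median difference of 0.19, with 13 higher in the knockout and 0 passing.

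Regulators of mitochondrial biogenesis were near the median of all genes. Of 19 tested, 0 passed, 13 had a higher knockout mean, and the median difference was 0.05. Tfam, which packages and transcribes mitochondrial DNA, had levels of 0.64 and 0.58 on the wild-type and 0.81 and 0.84 on the knockout arrays. Nrf1, a transcription factor for many respiratory chain genes, had levels of 0.28 and 0.20 on the wild-type and 0.10 and -0.07 on the knockout arrays, with the knockout below and no overlap and a difference of -0.22 (SE 0.27). Esrra, a nuclear receptor active on the same genes, had levels of 5.09 and 4.88 on the wild-type and 5.59 and 4.76 on the knockout arrays, and its knockout arrays enclosed the wild-type arrays. Tfb1m, a methyltransferase of mitochondrial ribosomal RNA, had a difference of -0.34 (SE 0.32).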

How the data were processed

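Cy3-labelled RNA of 4 samples was hybridised to 1-colour Agilent mouse arrays, and spots were quantified in Agilent Feature Extraction 11.5.1.1, per the submitters' processing notes. The deposited intensity is a background-subtracted, detrended signal per the file headers. The authors' deposited log2 value table matched these signals, scaled to the 75th percentile and centred per probe, within 0.01 for 39408 probes, with column medians of 0.05, -0.10, -0.11 and 0.12.

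Control and outlier-flagged spots (91 to 129 an array) were left out, and log2 signals were set against each array's 75th percentile. Of 39429 probes, 28025 had an accession that the RefSeq table of GRCm38.p6 pairs with a symbol. Probes well above background on at least 2 of 4 arrays were kept, and the brightest per symbol gave 14399 genes. Genotypes were compared with limma 3.58.1 (lmFit, eBayes with an intensity trend) under R 4.3.3, with Benjamini-Hochberg adjustment at 0.05. Intervals are at 95%. The fit was tested on simulated data. The array's mean spot signal was not in the files, so normexp used the median signal. The named genes are core subunits, paralogs, genes without overlap of smallest p in each complex, and the extremes of each knockout array; names beyond these were chosen after their values were seen. The members and lists were chosen with earlier results of these data known. A gene named by this rule is not reported here.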

Additional observations from a re-analysis of the deposited data

How the results depend on the processing

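No oxidative phosphorylation gene was called in any of the alternatives run with limma, while calls over all genes went from 6 to 13 with normexp and to 0 when all 4 arrays had to be well above background. With the replicate number as a block, which the labels do not tie to shared animals (correlation of same-numbered deviations 0.05), there were 32 calls over all genes and again 0 among these genes. Leaving out 1 array gave 0 to 441 calls over all genes, 17 genes of the set (without wild type 2, against 20.9% of all genes) to 78 (without wild type 1, against 32.8%) with the knockout above without overlap (12 with all arrays), 1 (without wild type 1, against 20.7%) to 19 (without wild type 2, against 22.6%) with it below, and a median difference of 0.03 to 0.41. That median was 0.51 within the shared slide. It was 0.10 with quantile normalization (88 of 102 higher), 0.28 with array medians, and -0.41 with normexp.

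Under normexp the medians turned to -0.44 for ATP synthase, -0.43, -0.41, -0.33 and -0.38 for complexes I to IV, -0.17 for complex IV assembly and -0.23 for Cycs. On knockout 2, 6 spots had a local background above their signal, and normexp raised its 10th percentile to 473, against 61.3 to 63.7 on the other arrays. With those backgrounds set to the array's median, an alternative added after seeing the data, the median difference was 0.17. Genes without overlap and with the knockout above then numbered 6 (9.49% of all genes), against 5 with planned normexp (11.6%). With normexp, quantile normalization and the mean of probes 1 gene lay below, against 11.2%, 6.55% and 6.47% of all genes. Leaving out 1 array moved the median of complex I between -0.022 (without wild type 2) and 0.42, and those of complex II, complex IV assembly and Cycs from -0.086, -0.026 and -0.25 (without knockout 1) to 0.57, 0.34 and 1.095 (without knockout 2). A lone array of a genotype was assumed to vary like the others. The other values are those of single complexes and named genes over these alternatives. Of them, 666 stayed within the spread between replicates or, for single genes in the limma fits, kept their sign without a call. Another 131 moved further than that spread or, for single genes in the limma fits, changed sign without a call. A further 11, all medians of a complex, an assembly group or cytochrome c, turned sign.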

Other observations

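Genes for the mitochondrial ribosome and for protein import, which supply the mitochondrially made and the imported subunits, were also read. Of 77 tested genes whose symbols start with Mrpl or Mrps, nearly all of them for the mitochondrial ribosome, 73 had a higher knockout mean (against 56.2% of all genes), 24 had both knockout arrays above both wild-type arrays (against 8.65%) and 2 had both below (against 6.08%), and limma called 0, with 0 also at an unadjusted p under 0.05. Their median was 0.14 on wild type 1 and -0.14 on wild type 2 relative to the wild-type mean, and 0.16 and 0.18 on knockout 1 and 2, so wild type 2 was again the lowest array. Mrpl20, of the large subunit, read 4.26 and 3.96 on the wild-type and 4.43 and 4.56 on the knockout arrays. Mrps18a, of the small subunit, read 1.87 on both wild-type arrays and 1.66 and 1.83 on the knockout arrays. Of 25 genes whose symbols start with Timm or Tomm, 22 had a higher knockout mean (against 56.2% of all genes), and limma called 0. The genotypes did not overlap for 5 of them with the knockout higher (against 8.65%) and for 1, Tomm34, with it lower (against 6.08%). Among the 25 is Timmdc1, which is a complex I assembly factor and was also counted with the 29 assembly factors outside the naming rule. Timm10, a chaperone between the mitochondrial membranes, read 2.46 and 1.91 on the wild-type and 2.70 and 2.53 on the knockout arrays. Whether these lists differ from the oxidative phosphorylation genes was not tested.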
